A study of Mus musculus with 6 samples.

Results

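The genes described here are 46 mouse genes of the lysosome, namely 13 proteases, 12 glycosidases, 5 sulfatases, 3 lipid hydrolases, 3 activator or granulin precursors, 4 membrane proteins, 4 genes of enzyme delivery and 2 cystatins. They were picked by gene symbol from a list of known lysosomal genes, and all 46 symbols were present among the 21604 in the count table. Each of the 46 passed the filter on low counts, which left 13014 genes for the test, and each is annotated as protein coding. RNA was sequenced from RAW 264.7 cells, a wild type mouse macrophage-like line that the labels also call bone marrow macrophage. Of 6 libraries, 3 came from cells exposed for 24 h to 100 ng/mL of LPS, the lipopolysaccharide of Gram-negative bacteria, which macrophages sense through TLR4. The other 3 came from cells given the same LPS dose for 24 h together with PE-CUR at 2 mg/mL, which the series title links to emulsion droplets stabilised by particles and loaded with curcumin, a plant polyphenol. Both groups thus share LPS, and the labels name no cells without LPS, no empty emulsion and no free curcumin. Whether the 3 libraries of a group stem from separate cultures is not stated, and the p-values then cover only the spread between libraries, which may be technical.

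Lysosomes are acidic compartments in which hydrolases break down proteins, glycans, lipids and nucleic acids that arrive by endocytosis, phagocytosis and autophagy. Most soluble hydrolases receive a mannose 6-phosphate tag in the Golgi, and receptors that bind this tag, or sortilin, carry them to endosomes. Heavily glycosylated membrane proteins such as LAMP1 and LAMP2 line the compartment, and cystatins inhibit cathepsins that leave it. Macrophages are rich in lysosomes, and cathepsins in them also process antigens and activate other enzymes. Many of these genes are known targets of TFEB, TFE3 and MITF, transcription factors that bind a palindromic element around CACGTG.

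Total counts lay between 28530750 and 35276533 per library, and the 46 genes held 2.16% to 2.46% of them in the LPS libraries and 1.70% to 1.94% in the libraries with PE-CUR. All 10 macrophage markers examined had counts in every library, but their levels moved: 5 were called lower, 2 higher and 3 did not pass. In CPM (counts scaled to a common library size, the unit of all levels not given as FPKM) the 10 summed to 10578 to 11199 in LPS and 9153 to 9837 with PE-CUR. Adgre1, the F4/80 antigen, fell from 85.2 ± 7.25 to 26.8 ± 3.50 CPM (mean ± SD, n = 3), Fcgr1 from 155 ± 12.2 to 60.2 ± 1.54 CPM, Lyz2 from 6421 ± 349 to 4835 ± 347 CPM and Itgam from 753 ± 24.0 to 627 ± 16.9 CPM. Mertk fell from 28, 28 and 34 counts to 3, 2 and 2. Csf1r rose from 865 ± 53.4 to 1201 ± 103 CPM and Cd14 from 1179 ± 77.6 to 1559 ± 93.0 CPM. Osteoclast markers summed to 137, 164 and 164 CPM in LPS and 58.6, 72.4 and 74.9 CPM with PE-CUR, and of the 5 tested 3 fell, 1 rose and 1 did not pass. Dcstamp, a fusion protein, fell from 117 ± 11.6 to 55.2 ± 9.23 CPM, Atp6v0d2, a proton pump subunit, from 24.4 ± 6.60 to 0.699 ± 0.423 CPM and Acp5 from 12.1 ± 0.835 to 9.70 ± 0.747 CPM, while Mmp9 rose from 0.511 ± 0.101 to 2.65 ± 0.231 CPM. The collagenase gene Ctsk did not pass, with 7 to 17 counts per library, and Oscar and Ocstamp, with 0 to 18 counts, were too low to test. Lymphocyte markers summed to at most 0.387 CPM. Transcripts of 7 liver genes summed to 45.1 to 62.2 CPM in the LPS libraries, 0.0616 and 0.0589 CPM in LPS plus PE-CUR replicates 1 and 2 and 78.1 CPM in replicate 3. Fibroblast markers summed to 12.5 CPM in LPS plus PE-CUR replicate 2 and to at most 2.32 CPM in the other libraries. LPS plus PE-CUR replicate 3 alone was also compared with the 3 LPS libraries, all 4 of which held the liver transcripts. The median log2 fold change was -0.30 over the 46 lysosomal genes and -0.024 over all tested genes. That fit assumes that the lone library varies like the others, and the part of the liver transcripts was not tested.

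Most of the 46 genes were lower with PE-CUR. In the edgeR quasi-likelihood test, with Benjamini-Hochberg adjustment over all 13014 genes and a threshold of 0.05, 31 of them fell, 4 rose and 11 did not pass. Of all tested genes, 32.7% were called lower, 30.8% higher and 63.4% in either direction. Among the 8877 tested genes with a mean of at least 10 CPM, the level that all 46 reach, 30.9% were called lower, 38.6% higher and 69.6% in either direction. The share of the lysosomal genes called lower, 67.4%, was above both backgrounds, the share called higher, 8.70%, was below both, and 76.1% were called in either direction. Their median log2 fold change, LPS plus PE-CUR over LPS, was -0.44, which is 1.35-fold, beside -0.03 over all tested genes and 0.05 over those with at least 10 CPM. A fall of at least 1.5-fold was called for 13 of the 46, beside 19.1% of all tested genes, and a rise of that size for 1, Cst3, beside 15.2%.

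In 33 of the 46 genes all 3 libraries with PE-CUR lay below all 3 LPS libraries, in 4 they lay above and in 9 the groups overlapped. Among all tested genes 35.7% lay wholly below, 33.3% wholly above and 69.0% in either way. Bulk RNA cannot tell fewer lysosome-rich cells from less of these transcripts per cell. Some macrophage and osteoclast markers changed in the same comparison, by the values above, and their part in the lysosomal result was not tested. The 4 genes that rose were Cst3, Ctss, M6pr and Gusb, an inhibitor, a protease, a sorting receptor and a glycosidase.

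**Figure D1:**
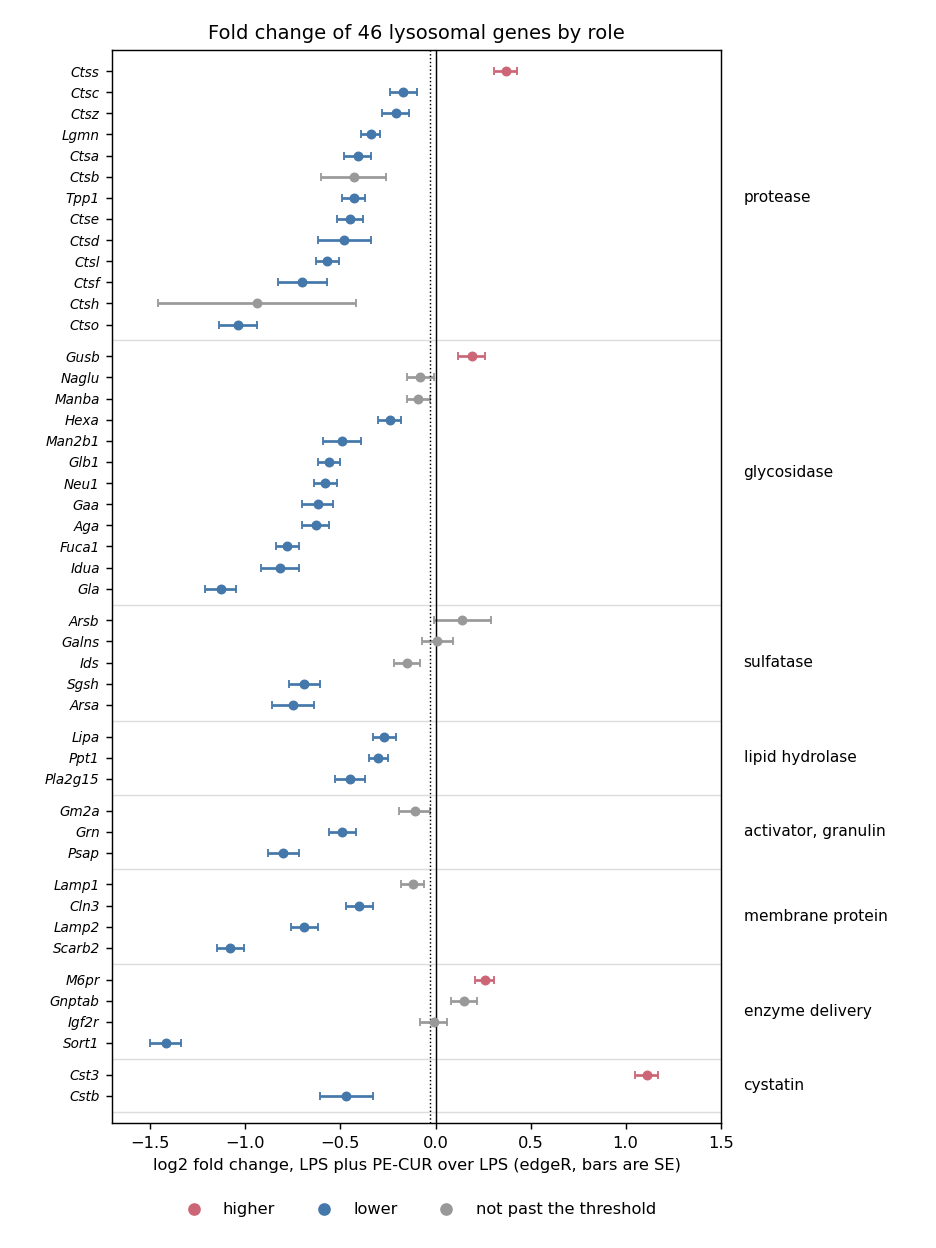
Log2 fold change (LPS plus PE-CUR over LPS, horizontal axis, bars are SE) of each of the 46 genes, grouped by role, with colour for the edgeR call at an adjusted p under 0.05. Points of 39 genes lie below 0, from -1.42 for Sort1, and 7 above, up to 1.11 for Cst3, and the dotted line marks the median of all tested genes at -0.03.

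Promoters are shown for the element that the TFEB group reads, since no binding data were used here. RefSeq start sites of build GRCm38.p6 gave 42 windows (250 bases before to 50 after the start) for 38 of the 46 genes. Aga, Ctsb, Ctse, Ctsh, Cstb, Galns, M6pr and Sort1 had no entry. The letters CACGTG, which read the same on both strands, stood in 14 of the 42 windows (33.3%), in 9.92% of the 13212 windows of tested genes and in 7.15% of all 32851 windows. The longer TCACGTGA, which holds CACGTG, stood in 5 of the 42 windows (11.9%), against 1.78% of windows of tested genes and 0.974% of all windows. A 10-letter form, TCACGTGA with a G before and a C after it, stood in 2 of the 42 (4.76%), against 0.689% and 0.326%. Of the genes with a window, CACGTG stood at 11 of the 27 that fell (Arsa, Cln3, Ctsa, Ctsd, Ctsf, Ctsl, Gaa, Gla, Glb1, Lgmn and Sgsh). It stood at 3 of the 8 that did not pass (Igf2r, Lamp1 and Naglu) and at 0 of the 3 that rose. Counted by gene, CACGTG stood at 36.8% of the 38 genes and at 11.8% of the tested genes with a window. Cln3, Ctsa, Lgmn and Psap, which all fell, had 2 windows each. CACGTG stood in only 1 of the 2 for Cln3, Ctsa and Lgmn and in none for Psap. A match is a description of the letters and not a binding site. The 5 windows with TCACGTGA are printed first, and that of Cst3, the gene with the largest rise, last for comparison. They are written 5′ to 3′ on the gene's strand, and capitals mark the longest of the 3 motifs at each match.
Ctsa (chr2:164833523-164833822, plus strand): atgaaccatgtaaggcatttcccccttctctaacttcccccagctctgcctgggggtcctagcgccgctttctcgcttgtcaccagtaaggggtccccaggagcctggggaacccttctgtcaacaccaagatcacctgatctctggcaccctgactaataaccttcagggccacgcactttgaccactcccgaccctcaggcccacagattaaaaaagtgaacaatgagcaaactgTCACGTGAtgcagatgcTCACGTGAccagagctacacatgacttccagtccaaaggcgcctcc
Ctsd (chr7:142387778-142388077, minus strand): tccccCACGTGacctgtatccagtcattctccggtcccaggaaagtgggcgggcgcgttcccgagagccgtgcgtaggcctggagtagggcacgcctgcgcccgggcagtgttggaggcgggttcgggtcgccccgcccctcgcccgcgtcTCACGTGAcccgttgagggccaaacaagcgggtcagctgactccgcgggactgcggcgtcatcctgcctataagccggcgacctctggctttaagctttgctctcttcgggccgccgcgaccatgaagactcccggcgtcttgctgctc
Gla (chrX:134600956-134601255, minus strand): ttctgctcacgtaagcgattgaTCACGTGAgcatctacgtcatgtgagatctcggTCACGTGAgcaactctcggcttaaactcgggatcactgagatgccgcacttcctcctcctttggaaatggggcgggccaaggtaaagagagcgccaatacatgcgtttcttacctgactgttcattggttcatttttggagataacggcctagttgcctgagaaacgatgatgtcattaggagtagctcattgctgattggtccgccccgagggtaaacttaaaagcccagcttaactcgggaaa
Cln3 (chr7:126583187-126583486, minus strand): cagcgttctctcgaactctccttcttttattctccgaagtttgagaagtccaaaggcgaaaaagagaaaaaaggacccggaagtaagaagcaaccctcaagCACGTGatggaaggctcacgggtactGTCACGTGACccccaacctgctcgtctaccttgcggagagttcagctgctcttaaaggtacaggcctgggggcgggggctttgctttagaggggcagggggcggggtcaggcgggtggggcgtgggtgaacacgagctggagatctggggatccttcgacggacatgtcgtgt
Igf2r (chr17:12769657-12769956, minus strand): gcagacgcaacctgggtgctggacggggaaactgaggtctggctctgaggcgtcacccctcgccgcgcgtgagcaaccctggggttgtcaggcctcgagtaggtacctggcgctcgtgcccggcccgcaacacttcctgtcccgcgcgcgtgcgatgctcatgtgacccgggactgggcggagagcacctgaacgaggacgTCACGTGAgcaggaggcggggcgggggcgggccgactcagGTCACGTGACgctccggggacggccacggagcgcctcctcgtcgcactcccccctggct
Cst3 (chr2:148875463-148875762, minus strand): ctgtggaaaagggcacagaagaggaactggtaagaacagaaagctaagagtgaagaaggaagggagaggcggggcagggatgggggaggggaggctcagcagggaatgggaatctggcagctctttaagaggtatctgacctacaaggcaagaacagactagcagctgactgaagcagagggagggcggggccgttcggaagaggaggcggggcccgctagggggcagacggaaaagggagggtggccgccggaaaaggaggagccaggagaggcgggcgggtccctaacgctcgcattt
Ctsa, Gla and Igf2r carried 2 matches of TCACGTGA each, and Cln3 and Igf2r carried the 10-letter form. Of these 5 genes, Ctsa, Ctsd, Gla and Cln3 fell and Igf2r did not pass.

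Levels per transcript length set the order within the group. On the deposited FPKM scale, which divides reads by gene length and library total, the aspartic protease gene Ctsd was highest in LPS, at 1206, 1503 and 1457 FPKM. Ctsb overlapped it, at 1005, 1256 and 1144 FPKM. Cst3 followed at 712, 762 and 723 FPKM, below both in every LPS library. Next by mean came Ctsz (578), Lamp1 (574), Psap (564), Cstb (556) and Grn (533 FPKM), and in each neighbouring pair of these the LPS libraries overlapped. The lowest were Ctsc (7.25), Sort1 (6.62) and Ids (5.99 FPKM), each below the gene before it in every LPS library.

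With PE-CUR the order at the top changed. Cst3 was the highest of the 46 at 1522 FPKM, above Ctsd at 959 and Ctsb at 809. Ctss moved from the 11th to the 8th place (283 to 352 FPKM) and Psap from the 6th to the 9th (564 to 313 FPKM). Sort1 was the lowest, at 2.38 FPKM. The FPKM order rests on the authors' gene lengths. The length implied by the deposited values was within 10% of the union of exons in GENCODE M21 for 14 of the 46 genes. It was longer than the union for Gusb (9588 beside 4548 bases) and Ctsc (11154 beside 5808), and shorter for Ctsh (1670 beside 4499), Ctsf (2052 beside 5041), Lipa (2971 beside 6780) and Cst3 (796 beside 1266). Places in this order, the highest and the lowest included, hold only for the authors' lengths.

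**Figure D2:**
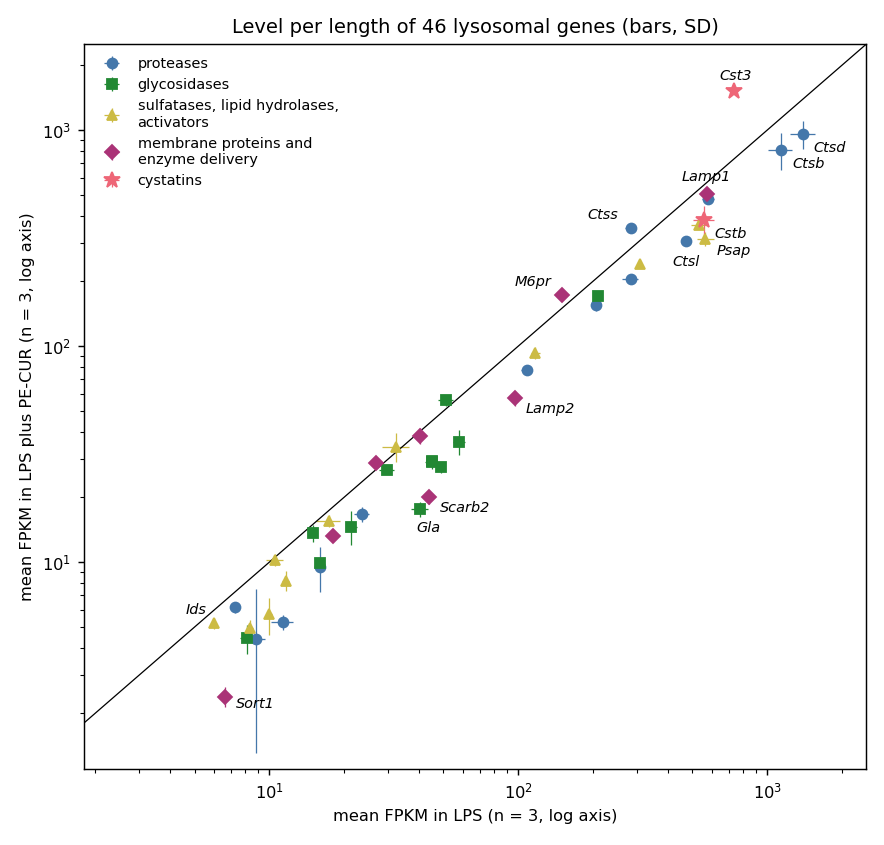
Mean FPKM in LPS (horizontal, log axis) against mean FPKM in LPS plus PE-CUR (vertical, log axis) for the 46 genes, with SD over 3 libraries as bars, marker shape for the class and the line of equal levels. Cst3 stands above the line, at 733 and 1522 FPKM, and Ctsd and Ctsb, the highest in LPS, stand below it.

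Among the 13 proteases 10 fell (76.9%), 1 rose (7.69%) and 2 did not pass, beside 32.7% lower and 30.8% higher among all tested genes. Their median log2 fold change was -0.43, with a range from -1.04 to 0.37, beside a median of -0.03 over all tested genes. Levels from here on are CPM scaled by TMM factors, given for replicates 1 to 3 of a group in that order. Ctsl, a cysteine protease of the papain family with a broad role in lysosomal proteolysis (chromosome 13, 64361890 to 64370772, GRCm38), stood at 1653, 1635 and 1692 CPM in LPS and 1074, 1130 and 1158 CPM with PE-CUR. Every library with PE-CUR was below every LPS library, by far more than the spread within either group (log2 fold change -0.57 with SE 0.06, edgeR adjusted p = 6.47e-06).

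Ctss, a papain family protease that trims the invariant chain of MHC class II and stays active at neutral pH (chromosome 3, 95526786 to 95556405), went the other way. It stood at 384, 427 and 397 CPM in LPS and at 485, 530 and 548 CPM with PE-CUR, without overlap (log2 fold change 0.37 with SE 0.06, edgeR adjusted p = 0.000444). Ctsl and Ctss are members of 1 enzyme family, and the ratio of Ctsl to Ctss on the FPKM scale was 1.74, 1.55 and 1.73 in LPS and 0.897, 0.864 and 0.856 with PE-CUR. This ratio was chosen after its values were seen. Ctso, a less studied member of the family (chromosome 3, 81932601 to 81956725), showed the largest called fall among the proteases. Its levels were 35.3, 37.3 and 42.4 CPM in LPS and 17.3, 20.7 and 17.9 CPM with PE-CUR, a 2.06-fold difference (log2 fold change -1.04 with SE 0.10, edgeR adjusted p = 4.61e-06).

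The most abundant proteases varied more between libraries. Ctsb, another papain family cathepsin (chromosome 14, 63122462 to 63145923), stood at 4685, 5871 and 5291 CPM in LPS and 3093, 3950 and 4730 CPM with PE-CUR. LPS plus PE-CUR replicate 3 reached above LPS replicate 1, so the groups overlapped, and the gene did not pass (log2 fold change -0.43 with SE 0.17, edgeR adjusted p = 0.0660). Without LPS plus PE-CUR replicate 3 it passed (edgeR adjusted p = 0.00474), as it did with DESeq2 on all libraries (adjusted p = 0.00318), and over all alternatives the adjusted p ran from 0.00318 to 0.467. Ctsd, the main aspartic protease of lysosomes (chromosome 7, 142375910 to 142387827), stood at 2272, 2841 and 2723 CPM in LPS and 1570, 1870 and 2195 CPM with PE-CUR. It fell (log2 fold change -0.48 with SE 0.14, edgeR adjusted p = 0.0206) in libraries that nearly met, 2195 against 2272 CPM. The Ctsd call ended without LPS replicate 2 (edgeR adjusted p = 0.0998), LPS replicate 3 (0.0879) or LPS plus PE-CUR replicate 2 (0.0633).

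Tpp1, Ctsa and Lgmn fell by smaller factors. Tpp1, which removes tripeptides and is lost in a childhood neuronal storage disease (chromosome 7, 105744811 to 105752282), stood at 377, 415 and 406 CPM in LPS and 290, 286 and 316 CPM with PE-CUR (edgeR adjusted p = 0.000115). Ctsa, a carboxypeptidase that also protects beta-galactosidase and neuraminidase (chromosome 2, 164832872 to 164841032), stood at 933, 1083 and 1033 CPM against 746, 752 and 792 CPM (edgeR adjusted p = 0.000218). Lgmn, the asparaginyl endopeptidase that activates cathepsins (chromosome 12, 102394082 to 102439728), stood at 389, 413 and 406 CPM against 330, 308 and 316 CPM (edgeR adjusted p = 0.000233). The groups did not overlap in any of the 3 genes, and the folds were between 1.27 and 1.34.

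Of the other proteases, Ctse fell from 48.9 ± 2.99 to 35.8 ± 1.92 CPM (mean ± SD, n = 3) and Ctsf from 32.3 ± 1.31 to 19.8 ± 4.22 CPM. Smaller falls were called for Ctsz, from 771, 863 and 818 CPM to 663, 700 and 756 CPM, and for Ctsc, the activator of serine proteases of granules, from 79.4 ± 1.19 to 70.5 ± 5.57 CPM. The Ctsc call (edgeR adjusted p = 0.0470) ended without any 1 of LPS replicates 1, 2 and 3 or LPS plus PE-CUR replicates 1 and 2 (0.139 to 0.293). It also ended with DESeq2 (adjusted p = 0.105), and in edgeR with median-ratio factors (adjusted p = 0.0772), no filter (0.238) and the replicate block (0.0793). The same held with TMM factors computed without the 46 genes (edgeR adjusted p = 0.0964) and without mitochondrial and the 10 most abundant genes (0.101). The Ctsz call (edgeR adjusted p = 0.0167) ended without LPS replicates 2 or 3 or LPS plus PE-CUR replicates 1 or 2 (0.0964 to 0.144), and with no filter (0.0524). Ctsh, an aminopeptidase of the papain family, had the widest spread of the 46 genes, with 15.8, 14.4 and 13.2 CPM in LPS and 13.1, 5.98 and 3.29 CPM with PE-CUR. It did not pass (log2 fold change -0.94 with SE 0.52, edgeR adjusted p = 0.177), and it passed without LPS plus PE-CUR replicate 1 (-1.60 on the log2 scale, edgeR adjusted p = 0.000299).

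**Figure D3:**
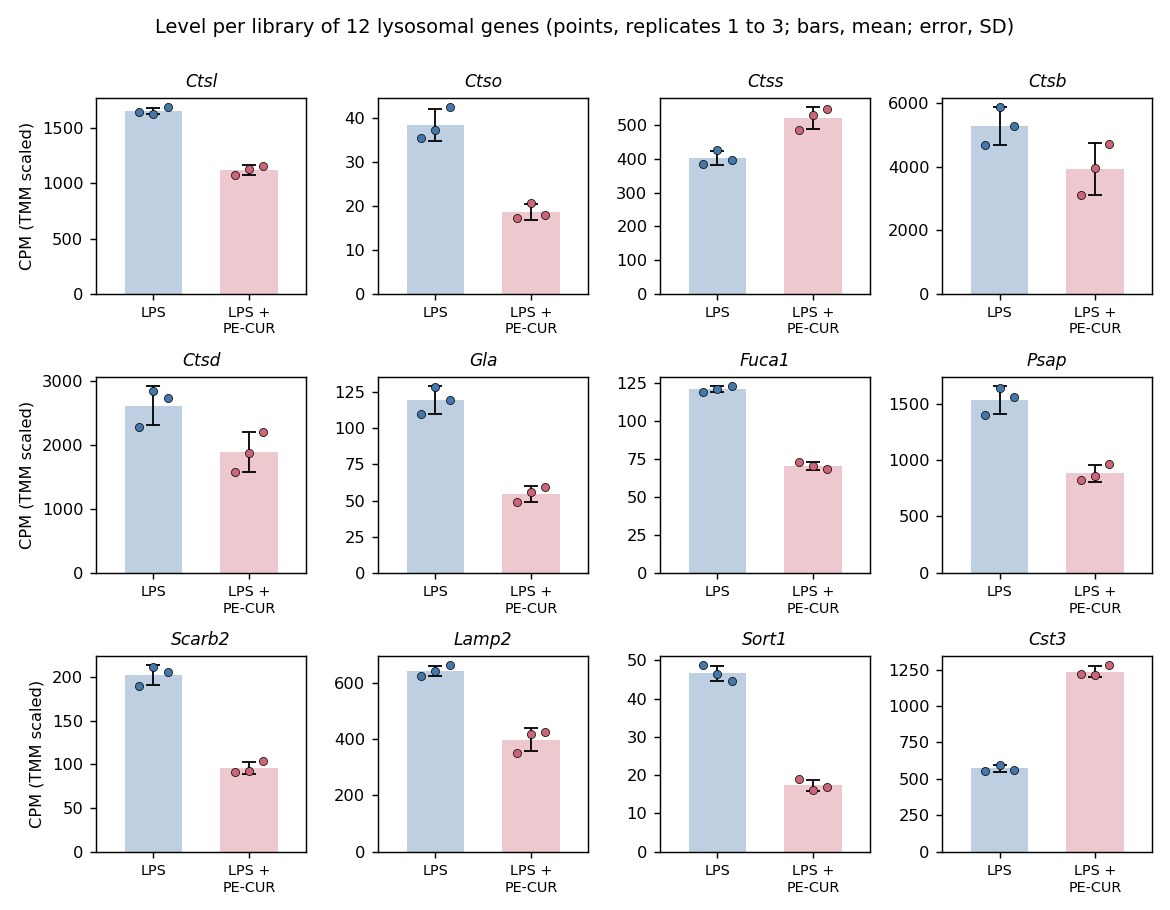
TMM-scaled CPM (vertical axis, from 0) of 12 of the genes in each library (points, replicates 1 to 3 from left to right), with the group mean as a bar and the SD as the error. The points of the groups overlap for Ctsb and for no other gene shown, and Ctss and Cst3 are higher with PE-CUR.

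Of the 12 glycosidases, counting Aga, an amidase that frees N-linked sugars from asparagine, 9 fell (75.0%), 1 rose (8.33%) and 2 did not pass. Among all tested genes 32.7% were called lower and 30.8% higher. The median log2 fold change of the 12 was -0.57, beside -0.03 over all tested genes. Gla, the alpha-galactosidase lost in Fabry disease (chromosome X, 134588169 to 134601005), whose promoter with 2 TCACGTGA matches is printed above, showed the largest difference. It stood at 110, 129 and 120 CPM in LPS and 48.8, 55.6 and 59.3 CPM with PE-CUR (log2 fold change -1.13 with SE 0.08, edgeR adjusted p = 9.74e-07). The highest library with PE-CUR was thus far below the lowest LPS library. Fuca1, the lysosomal alpha-fucosidase (chromosome 4, 135920726 to 135940300), varied little between replicates, with 119, 121 and 123 CPM in LPS and 73.3, 70.4 and 68.2 CPM with PE-CUR (log2 fold change -0.78 with SE 0.06, edgeR adjusted p = 8.16e-07).

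Neu1 and Aga were next by p. Neu1, the lysosomal sialidase (chromosome 17, 34931253 to 34937297), stood at 160, 180 and 170 CPM in LPS and 120, 111 and 111 CPM with PE-CUR (edgeR adjusted p = 1.59e-05). Aga (chromosome 8, 53511683 to 53523422) stood at 43.4, 46.5 and 46.9 CPM against 29.2, 29.9 and 29.3 CPM (edgeR adjusted p = 1.25e-05). Their folds were 1.49 and 1.55. Falls without overlap were also called for Idua, which degrades dermatan and heparan sulfate (37.8 ± 2.53 to 21.4 ± 2.79 CPM), Gaa, the enzyme of lysosomal glycogen breakdown (202 ± 12.1 to 131 ± 14.1 CPM), Glb1, beta-galactosidase (105 ± 5.72 to 71.3 ± 2.91 CPM), and Man2b1, alpha-mannosidase (102 ± 4.80 to 72.8 ± 11.2 CPM). Hexa, which degrades gangliosides (chromosome 9, 59539540 to 59565109), differed less, with 407, 444 and 428 CPM in LPS and 365, 348 and 370 CPM with PE-CUR (log2 fold change -0.24 with SE 0.06, edgeR adjusted p = 0.00309).

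Gusb, beta-glucuronidase (chromosome 5, 129989011 to 130003049), was the glycosidase called higher. It stood at 459, 519 and 462 CPM in LPS and 520, 533 and 590 CPM with PE-CUR, so the groups were 1 CPM apart (log2 fold change 0.19 with SE 0.07, edgeR adjusted p = 0.0329). That call ended without LPS replicate 1 (edgeR adjusted p = 0.0654), LPS replicate 3 (0.0706) or LPS plus PE-CUR replicate 3 (0.0793), and with the replicate number as a block (0.0507). Manba (110 ± 7.72 and 103 ± 2.47 CPM) and Naglu (37.3 ± 0.916 and 35.2 ± 2.55 CPM) did not pass, and in both the groups overlapped.

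Of the 5 sulfatases 2 fell, 0 rose and 3 did not pass. Among all tested genes 32.7% were called lower and 63.4% in either direction. The sulfatases thus lay near the share lower of genes at large and below their share called. Sgsh, the sulfamidase of heparan sulfate breakdown (chromosome 11, 119343489 to 119355510), had 1138, 1204 and 1244 counts in LPS and 759, 714 and 587 with PE-CUR, or 35.3 ± 1.19 and 21.9 ± 1.30 CPM (log2 fold change -0.69 with SE 0.08, edgeR adjusted p = 1.45e-05). Arsa, which desulfates the myelin lipid sulfatide (chromosome 15, 89472476 to 89477424), stood at 33.4, 34.5 and 34.8 CPM against 24.1, 17.3 and 19.6 CPM (log2 fold change -0.75 with SE 0.11, edgeR adjusted p = 0.000139). The groups did not overlap in either gene. The other 3 sulfatases did not pass. Ids had 33.7 ± 0.352 and 30.3 ± 0.983 CPM without overlap (edgeR adjusted p = 0.0713), Galns 36.8 ± 2.85 and 37.1 ± 1.43 CPM, and Arsb 126 ± 16.0 and 139 ± 24.1 CPM. Ids was called lower with library size alone (edgeR adjusted p = 0.032) and with a filter at 1 CPM (0.0305). So it was by limma on log2 FPKM of the tested genes with 0.1 or 1 added (limma adjusted p = 0.0454 and 0.0417). The other alternatives did not call Ids. Leaving out LPS plus PE-CUR replicate 1 brought Arsb past the threshold as higher (0.29 on the log2 scale against 0.14 with it, edgeR adjusted p = 0.0497).

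All 3 lipid hydrolases fell by small amounts without overlap of the groups. Among all tested genes 32.7% were called lower and 35.7% lay wholly below. Ppt1, which removes palmitate from proteins (chromosome 4, 122836077 to 122859175), stood at 751, 752 and 754 CPM in LPS and 601, 599 and 632 CPM with PE-CUR (log2 fold change -0.30 with SE 0.05, edgeR adjusted p = 0.000402). Pla2g15, a lysosomal phospholipase (chromosome 8, 106150354 to 106164718), stood at 39.0, 40.5 and 41.5 CPM against 31.6, 26.9 and 30.4 CPM (log2 fold change -0.45, edgeR adjusted p = 0.000466). Lipa, acid lipase, which frees cholesterol and fatty acids from lipoproteins and lipid droplets (chromosome 19, 34492316 to 34527474), stood at 325, 350 and 345 CPM against 292, 267 and 286 CPM (log2 fold change -0.27, edgeR adjusted p = 0.00175). In each of them the lowest LPS library was above the highest library with PE-CUR.

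Psap, the precursor of the saposins that lift sphingolipids to their hydrolases (chromosome 10, 60277628 to 60302600), showed a larger fall at a higher level. It stood at 1403, 1640 and 1564 CPM in LPS and 821, 863 and 970 CPM with PE-CUR (log2 fold change -0.80 with SE 0.08, edgeR adjusted p = 7.03e-06). Grn, the granulin precursor that binds prosaposin and travels with it to lysosomes (chromosome 11, 102430507 to 102436809), stood at 1025, 1167 and 1178 CPM against 782, 783 and 834 CPM (log2 fold change -0.49 with SE 0.07, edgeR adjusted p = 7.3e-05). Both genes thus fell, Psap by 1.74-fold and Grn by 1.40-fold. Gm2a, an activator of ganglioside breakdown, was 72.4 ± 8.06 and 67.3 ± 2.69 CPM and did not pass.

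Of the 4 membrane proteins 3 fell (75.0%), beside 32.7% of all tested genes. Scarb2, also called LIMP-2, the receptor that carries glucocerebrosidase to lysosomes (chromosome 5, 92441311 to 92505657), stood at 190, 211 and 206 CPM in LPS and 91.3, 91.9 and 104 CPM with PE-CUR (log2 fold change -1.08 with SE 0.07, edgeR adjusted p = 3.86e-07). Lamp2, which includes the receptor of chaperone-mediated autophagy among its isoforms (chromosome X, 38399647 to 38456460), stood at 624, 640 and 661 CPM against 350, 419 and 423 CPM (log2 fold change -0.69 with SE 0.07, edgeR adjusted p = 1.26e-05). Isoforms cannot be told apart in counts per gene. Its relative Lamp1 (chromosome 8, 13159161 to 13175338) stood at 1182, 1322 and 1270 CPM against 1187, 1107 and 1170 CPM, groups that overlapped, and did not pass (log2 fold change -0.12 with SE 0.06, edgeR adjusted p = 0.0994). Lamp1 was called lower with library size alone (edgeR adjusted p = 0.0301) and with a filter at 1 CPM (0.0409). So it was by limma on log2 FPKM of the tested genes with 0.1 or 1 added (limma adjusted p = 0.0337 and 0.0367). The other alternatives did not call it. Whether Lamp1 and Lamp2 differ in response was not tested. Cln3, a membrane protein lost in juvenile neuronal storage disease (chromosome 7, 126571207 to 126585817), stood at 66.3, 74.3 and 72.6 CPM against 55.7, 55.5 and 50.8 CPM (edgeR adjusted p = 0.000464).

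The genes of enzyme delivery did not share a direction. Sort1, sortilin, a receptor that takes prosaposin, granulin and other proteins from the Golgi or the cell surface to endosomes (chromosome 3, 108283974 to 108361519), showed the largest fall of the 46 genes. It stood at 48.7, 46.5 and 44.6 CPM in LPS and 19.0, 16.2 and 17.0 CPM with PE-CUR, a 2.68-fold difference (log2 fold change -1.42 with SE 0.08, edgeR adjusted p = 2.02e-07). M6pr, the cation-dependent mannose 6-phosphate receptor (chromosome 6, 122308720 to 122317680), rose, from 367, 372 and 362 CPM to 450, 426 and 444 CPM (log2 fold change 0.26 with SE 0.05, edgeR adjusted p = 0.000929). Igf2r, the larger and cation-independent receptor (chromosome 17, 12682406 to 12769706), stood at 341, 378 and 342 CPM and 326, 338 and 388 CPM, with overlap, and did not pass (log2 fold change -0.01 with SE 0.07, edgeR adjusted p = 0.895). Gnptab, which makes the mannose 6-phosphate tag, missed the threshold at 144 ± 9.86 and 160 ± 10.6 CPM (edgeR adjusted p = 0.0779). Leaving out LPS replicate 2 brought it past the threshold as higher (log2 fold change 0.25 against 0.15 with it, edgeR adjusted p = 0.0162), as did leaving out LPS plus PE-CUR replicate 1 (0.23, edgeR adjusted p = 0.0147). Gnptab also passed with no filter (edgeR adjusted p = 0.0103) and with TMM factors computed without the 46 genes (0.038). It passed as well without mitochondrial and the 10 most abundant genes (edgeR adjusted p = 0.0366).

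The 2 cystatins went in opposite directions. Cst3, cystatin C, a secreted inhibitor of papain family cathepsins (chromosome 2, 148871722 to 148875512), stood at 557, 598 and 561 CPM in LPS and 1219, 1210 and 1279 CPM with PE-CUR. This was the largest rise of the 46 genes and the smallest p among them (2.16-fold, log2 fold change 1.11 with SE 0.06, edgeR adjusted p = 1.1e-07). Cstb, cystatin B, which stays mainly in the cytosol (chromosome 10, 78425670 to 78427622), stood at 296, 358 and 331 CPM against 193, 243 and 274 CPM (log2 fold change -0.47 with SE 0.14, edgeR adjusted p = 0.0217). The Cstb call ended without LPS replicate 2 (edgeR adjusted p = 0.0942), LPS replicate 3 (0.0827) or LPS plus PE-CUR replicate 2 (0.0604). Cst3 FPKM divided by the summed FPKM of the 8 papain family cathepsins was 0.305, 0.286 and 0.285 in LPS and 0.861, 0.750 and 0.715 with PE-CUR, a ratio chosen after its values were seen. It concerns transcripts and not the amounts of inhibitor and enzyme.

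Summed over genes, the 46 transcripts stood at 21202, 24284 and 23148 CPM in LPS and 16908, 18149 and 20018 CPM with PE-CUR, a ratio of 0.802. Proteases made up most of this sum of CPM, at 12806 ± 1053 and 9681 ± 1276 CPM (mean ± SD, n = 3). CPM are not divided by gene length. On the FPKM scale, proteases held 4519 of 8966 FPKM in LPS and 3386 of 7661 FPKM with PE-CUR. Glycosidases summed to 1957 ± 101 and 1612 ± 49.6 CPM, and the sulfatases, lipid hydrolases and activators together to 4130 ± 243 and 2923 ± 143 CPM. Membrane proteins and delivery genes summed to 3085 ± 118 and 2670 ± 84.9 CPM. In each of these classes all 3 sums with PE-CUR lay below all 3 in LPS, whereas the cystatin sum was higher, 900.5 ± 52.0 and 1472 ± 72.2 CPM. Without Ctsb the sum of the other 45 genes was still lower in every library with PE-CUR, with a ratio of 0.820. Without Ctsb, Ctsd and Ctsl the ratio was 0.858, again with all 3 sums with PE-CUR below all 3 in LPS. On the FPKM scale that ratio was 0.936, and only 2 of the 3 sums with PE-CUR lay below all 3 in LPS. No test is given for these sums, because the genes were chosen with results of these data known.

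**Figure D4:**
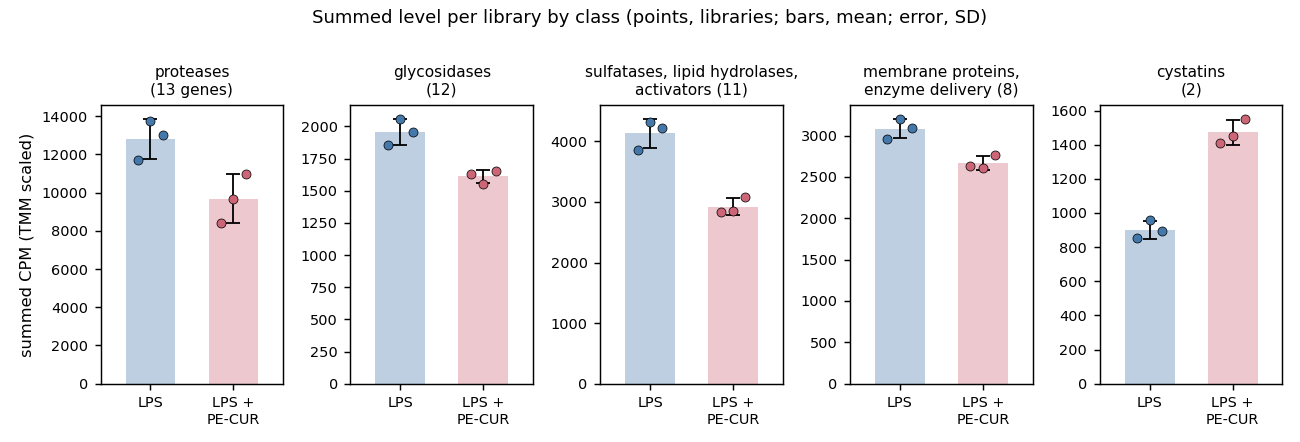
Summed TMM-scaled CPM (vertical axes, each from 0) of the genes of each class in each library (points), with the group mean as a bar and the SD as the error, for LPS and LPS plus PE-CUR. The protease sum is 12806 and 9681 CPM, and the cystatin sum, the only one that is higher with PE-CUR, 900.5 and 1472 CPM.

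Further hydrolases and membrane proteins of the lysosome, from lists that do not include the 46, were mostly lower too. Among all tested genes 32.7% were called lower and 30.8% higher. Of 31 tested genes listed as further hydrolases 18 fell (58.1%), 1 rose (3.23%) and 12 did not pass (median log2 fold change -0.42). That list also holds genes that are not lysosomal hydrolases, among them Npc2, a cholesterol carrier, Sumf1, which activates sulfatases, and Hgsnat, an acetyltransferase, all called lower, and Gpnmb, a membrane glycoprotein, which did not pass. Arsg, a sulfatase, fell from 37.6 ± 2.93 to 16.0 ± 0.784 CPM, Pld4 from 223 ± 10.8 to 133 ± 2.24 CPM and Pld3 from 237 ± 17.8 to 135 ± 3.33 CPM, the last 2 being exonucleases of lysosomal DNA and RNA. The exception, Nagpa, the Golgi enzyme that uncovers the mannose 6-phosphate tag, rose, with 30.7 ± 1.26 CPM in LPS and 58.4 ± 3.80 CPM with PE-CUR (edgeR adjusted p = 1.33e-06). Of 26 further membrane proteins 18 fell (69.2%), 1 rose (3.85%) and 7 did not pass (median -0.68). Ostm1 and Clcn7, which form a chloride and proton exchanger, fell from 109 ± 5.55 to 46.8 ± 4.97 CPM and from 139 ± 6.51 to 75.9 ± 2.13 CPM, Laptm4a from 248 ± 5.84 to 140 ± 6.47 CPM and the cholesterol exporter gene Npc1 from 265 ± 10.3 to 134 ± 12.5 CPM. The calcium channel gene Mcoln2 rose from 30.8 ± 1.68 to 36.8 ± 4.15 CPM with overlap of the groups (edgeR adjusted p = 0.0292).

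Of 22 delivery genes outside the 46, 9 were lower (40.9%), 7 higher (31.8%) and 6 not past the threshold (median -0.11), beside 32.7% lower and 30.8% higher among all tested genes. The adaptor subunit genes Ap1m1 and Ap1s1 rose from 50.6 ± 1.99 to 85.5 ± 6.57 CPM and from 175 ± 7.28 to 234 ± 8.24 CPM, and Cln6, an endoplasmic reticulum protein that helps to export hydrolases, from 26.7 ± 1.07 to 42.8 ± 1.43 CPM. Mcfd2, a cargo receptor subunit, fell from 91.9 ± 6.62 to 48.9 ± 4.17 CPM, Gga2, an adaptor that binds mannose 6-phosphate receptors, from 79.7 ± 2.70 to 54.4 ± 0.241 CPM, and Ap3d1 from 143 ± 4.30 to 96.9 ± 4.94 CPM. In a list of other protease inhibitors, Cst7, cystatin F, rose from 17.6 ± 0.933 to 29.2 ± 2.19 CPM, as Cst3 did. The serpin gene Serpinb6a fell from 273 ± 21.6 to 140 ± 5.09 CPM, Serpinb9 from 34.4 ± 3.72 to 15.2 ± 4.65 CPM and Serpinb1a from 2.74 ± 0.292 to 0.457 ± 0.162 CPM. In all, 1 of the 6 tested inhibitors rose, 3 fell and 2 did not pass.

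Of the TFEB family, Tfeb, Tfe3 and Mitf did not pass, and Tfec, with 10, 12 and 10 counts in LPS and 0, 5 and 3 with PE-CUR, was too low to test. Tfeb was 4.29 ± 0.388 CPM in LPS and 5.29 ± 1.01 CPM with PE-CUR (edgeR adjusted p = 0.151), Tfe3 76.5 ± 2.61 and 78.1 ± 7.38 CPM (0.749), and Mitf 53.0 ± 3.96 and 53.8 ± 7.14 CPM (0.847). These factors are controlled largely by phosphorylation and export from the nucleus, which RNA does not show. Of 20 tested lysosome regulators 9 fell, 1 rose and 10 did not pass (median -0.11). The shares among all tested genes were 32.7% lower, 30.8% higher and 63.4% in either direction. Regulators were thus called less often than genes at large, with a larger share lower and a smaller share higher. Fnip2, Rragc and Rraga, of the machinery that brings the growth kinase mTOR to lysosomes, fell from 489 ± 3.31 to 314 ± 24.5, from 205 ± 4.64 to 145 ± 12.8 and from 119 ± 6.97 to 88.1 ± 4.70 CPM. Mtor itself rose, with 62.3 ± 3.80 CPM in LPS and 91.7 ± 6.98 CPM with PE-CUR (edgeR adjusted p = 6.28e-05).

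**Figure D5:**
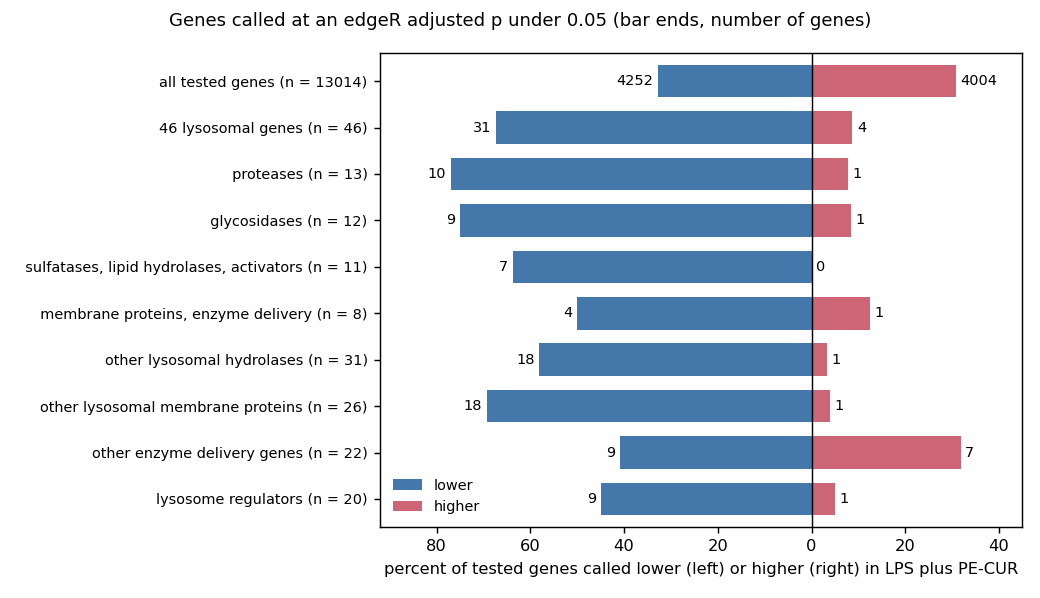
Percent of tested genes called lower (bars to the left) or higher (bars to the right) in LPS plus PE-CUR at an edgeR adjusted p under 0.05, with the number of genes at the bar ends, for all tested genes, the 46 genes and their classes, and other lysosome lists. The 46 genes reach 67.4% lower against 32.7% of all tested genes, and the delivery genes outside the 46, with 9 lower and 7 higher, lie nearer to the shares of all tested genes.

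Exons of 17 of the 46 genes overlap exons of another gene in GENCODE M21, on the opposite strand in 15. The overlap covered 39.9% of the exon bases of Arsb, 34.4% of Ctsd and 32.9% of Ctsl. Ctsd overlaps a gene on the same strand, and Ctsl overlaps genes on both strands. Whether counting used strand is not given, and without strand the reads of pairs on opposite strands cannot be told apart. Reads of pairs on the same strand cannot be told apart by strand in any case.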

How the data were processed

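RNA was isolated with TRIzol and sequenced from VAHTS Universal V6 libraries, per the labels' protocols. Tools named without versions in the submitters' processing notes are DESeq2, fastp, SAMtools and HTSeq, with build mm10; aligner, annotation and strand setting are not given. The authors deposited whole-number counts per gene symbol and FPKM values, which equal the same counts divided by gene length and library total in 100% of 105337 values (relative tolerance 1e-04). Counts were tested in R 4.3.3 with edgeR 4.0.16 (filterByExpr, TMM factors of 0.964 to 1.03, robust quasi-likelihood fit, group as the only term, two-sided, Benjamini-Hochberg adjustment over all tested genes, threshold 0.05).

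CPM were scaled by these factors, and 1 CPM of the library total is 28.5 to 35.3 counts. SE was taken from the F statistic, as the size of the log2 fold change over that statistic's square root. Libraries of 1 group differed by more than counting noise. The fit was tested on simulated data in which 200 genes changed. It recovered 61.2% of changes of 1.5-fold, 90.8% of 2-fold and 98.5% of 4-fold. Of its calls, 4.62% were of unchanged genes. Far more genes were called in the real data, 63.4% of those tested, and a setting with that many changes was not simulated. Alternatives were other scalings and filters, DESeq2 1.42.0, limma 3.58.1 on counts and on log2 FPKM, glmTreat, a replicate block and leaving out each library. Described with a value per library were, by role, up to 4 called members with the smallest p in the majority direction and 2 in the other, plus 15 in any case (Sgsh by its counts); Ctsz and Ctsh were added after their values were seen; other lists give up to 3 per direction, plus Npc1, Ctsk, Tfeb, Tfe3, Mitf and a gene that is not reported here. Members, lists and rules were chosen with earlier results of these data known. Coordinates are RefSeq GRCm38.p6, in which 20996 of 21604 symbols were found.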

Additional observations from a re-analysis of the deposited data

How the results depend on the processing

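Of the 35 genes called among the 46, 25 kept direction and call in all 20 alternatives, and none of the 46 turned direction with a call. The number lower ran from 26 to 35 except under glmTreat, edgeR's test against a 1.2-fold change, which called 23 lower and 2 higher, 6 proteases lower, 0 glycosidases and 0 membrane or delivery genes higher, 0 cystatins lower, and 7 higher in the other lysosome lists together (11 in the main test). The single glycosidase rise was 0 with library size alone, a filter at 1 CPM, each of the 3 limma fits of log2 FPKM and the replicate block. A rise of 1 was called among sulfatases, lipid hydrolases and activators without a filter and with LPS plus PE-CUR replicate 3 alone. Membrane and delivery genes had 2 rises in those 2 settings, with TMM factors computed without the 46 genes, and without mitochondrial and the 10 most abundant genes. LPS plus PE-CUR replicate 3 alone, added after seeing the data, gave 0 cystatins lower and a median log2 fold change of -0.30. Calls over all tested genes moved with the setting as well. Under glmTreat they were fewer in both directions than the 4252 lower and 4004 higher of the main test. The counts above thus do not by themselves separate a change in the lysosomal genes from a change in calls at large. The cause of the shifts above was not tested. With 1 library left out, the median ran from -0.45 to -0.36, glycosidases higher from 0 to 1, sulfatases, lipid hydrolases and activators higher from 0 to 1, membrane and delivery genes higher from 1 to 2, and cystatins lower from 0 to 1. Same-numbered libraries did not deviate together (correlations -0.102, -0.178 and -0.048), so the numbers were not taken to pair the samples, and the replicate block called 31 of the 46 lower and 3 higher. Each group of 3 libraries limits the precision for genes such as Ctsh and Ctsb.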

Other observations

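The 46 genes had a typical spread within a group of 5.54% in LPS and 6.40% with PE-CUR (median coefficient of variation of CPM), and the widest was 68.1%, in Ctsh with PE-CUR. Within the LPS group, replicate 1 was the lowest of the 3 libraries for 38 of the 46 genes and replicate 2 the highest for 31, beside 38.0% and 39.6% of all tested genes. With PE-CUR, replicate 2 was the highest for 2 of the 46, beside 31.6% of all tested genes.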
